A study of Mus musculus with 25 samples.

Results

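In mouse embryonic stem (ES) cells 16622 of the 24589 listed KLF4 contacts were absent from the KLF4 lists of reprogramming fibroblasts at day 3 and day 6, and they reached genes of the pluripotency network such as Pou5f1, Mycn, Tet1, Nanog, Sall4 and Tdgf1. A contact here is a pair of 10 kb bins of the same chromosome that the authors' list of high-confidence interactions holds. Members were thus chosen by the KLF4 values of ES cells, day 3 and day 6 that put a contact on a list. The rule asked for the same pair of bins in the ES list and for its absence from both earlier lists, so an ES-only contact is one that was not listed earlier, not one shown to be missing. The remaining 7967 ES contacts were also listed at day 3 or day 6 and are called shared contacts below. Across the 9 lists of the series, 493983 different contacts were listed.

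KLF4 is a zinc finger transcription factor that binds GC-rich sites carrying a short GGGNGTG-like motif, and it is one of the factors that turn fibroblasts into pluripotent stem cells. In ES cells it acts together with KLF2, KLF5, OCT4, SOX2 and ESRRB in the network that holds the naive state, and it is found at enhancers and promoters of that network. HiChIP ligates neighbouring pieces of chromatin to each other and then recovers with an antibody those bound by a given protein or carrying a given mark. The signal of a contact in a KLF4 library thus depends on both proximity and KLF4 binding, and a listing alone does not show KLF4 at an anchor. Acetylation of lysine 27 of histone H3 (H3K27ac) marks active enhancers and promoters, and Hi-C reads proximity without any antibody.

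KLF4 HiChIP was made from V6.5 ES cells kept in KO-DMEM with 2i (4 libraries) and from reprogrammable mouse embryonic fibroblasts (MEFs) treated with doxycycline (dox) and ascorbic acid for 3 days (3 libraries, bulk cells) or 6 days (4 libraries, cells sorted for SSEA1). The MEFs came from rtTA3-OKSM embryos of stage E13.5, heterozygous for an Oct4-GFP reporter, the OKSM cassette (Oct4, Klf4, Sox2 and Myc, placed at Col1a1) and rtTA3, so that KLF4 at day 3 and day 6 could also come from the cassette, which V6.5 cells are not labelled as carrying. H3K27ac HiChIP covered V6.5 ES cells in 2i (2 libraries), untreated MEFs of the same genotype at passage 3 in low oxygen (2 libraries), and V6.5 cells labelled TKO in 2i without dox (0 h, 3 libraries) or with dox for 24 h (3 libraries). Arima Hi-C covered ES cells in 2i and passage 3 MEFs (2 libraries each), and the cells for HiChIP were fixed with 1% formaldehyde. Day of reprogramming and sorting cannot be told apart, and in bulk samples fewer cells with a contact and a weaker contact per cell cannot be told apart. The design text calls the replicates biological without saying whether they were separate cultures or embryos, so p-values measure the spread between these libraries, which may be technical.

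Between several libraries no difference beyond sampling noise was detected. A chi-square test on counts gave 1.01 per degree of freedom between ES KLF4 libraries 1 and 2 (p = 0.239) and 0.966 between libraries 3 and 4 (p = 0.989), against 1.25 to 1.503 across these pairs. Each pair was therefore counted as 1 sample, and KLF4 values from ES cells are given as mean ± SD over these 2 (n = 2). In the same way TKO 24 h libraries 1 and 3 were counted as 1 sample, since the chi-square test gave p = 0.0991 over 47021 contacts. Sequenced depth was 51.9 to 102.0 M contacts (M stands for mega) per ES KLF4 library, 54.4 to 180.6 at day 3, 48.7 to 129.3 at day 6, 74.98 to 168.4 in the ES and MEF H3K27ac libraries and 68.3 to 109.9 in the TKO libraries. The list at day 6 held 4047 contacts and the list at day 3 held 23720, so most shared contacts (7387) were shared with day 3. The pluripotency and fibroblast gene lists matched the labels. All 26 pluripotency genes with an annotated bin had more H3K27ac contacts in ES cells than in MEFs, and 15 of 20 fibroblast genes had more in MEFs. More contacts in ES cells were common in general, at 7767 of 19575 protein-coding genes with a bin, against 2591 with more in MEFs. Of 61 ribosomal protein genes 58 had more in ES cells and 1 had more in MEFs, so the direction is not particular to pluripotency genes.

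The promoters below belong to pluripotency genes whose bins held ES-only contacts and show where GGGNGTG, or its reverse complement CACNCCC, stands in each (capitals). They are 300 bases long, from 250 bases before the start to 50 after it, on the strand of the gene, and come from RefSeq on GRCm38.p6, the build of the contact lists (mm10). Of the 21 pluripotency genes with an ES-only contact 14 had a promoter in the RefSeq table, and 9 of these had a match. The first belongs to Pou5f1 (OCT4), at chr17:35505782-35506081 on the plus strand, the next to Nanog at chr6:122707239-122707538 on the plus strand, and the others to Mycn at chr12:12941787-12942086, Tdgf1 at chr9:110946109-110946408 and Zfp42 at chr8:43306960-43307259, all on the minus strand.
Pou5f1: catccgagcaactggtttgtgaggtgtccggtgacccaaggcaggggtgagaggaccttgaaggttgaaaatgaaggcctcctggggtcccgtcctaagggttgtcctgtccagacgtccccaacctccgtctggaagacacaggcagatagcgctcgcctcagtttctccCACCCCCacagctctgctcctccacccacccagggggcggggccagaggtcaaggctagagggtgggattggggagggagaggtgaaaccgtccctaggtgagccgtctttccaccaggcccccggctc
Nanog: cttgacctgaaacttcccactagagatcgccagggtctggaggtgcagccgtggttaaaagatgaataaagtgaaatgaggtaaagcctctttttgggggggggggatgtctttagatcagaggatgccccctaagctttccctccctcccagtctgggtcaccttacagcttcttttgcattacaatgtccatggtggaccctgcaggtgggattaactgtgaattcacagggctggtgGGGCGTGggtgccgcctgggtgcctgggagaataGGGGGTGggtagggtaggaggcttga
Mycn: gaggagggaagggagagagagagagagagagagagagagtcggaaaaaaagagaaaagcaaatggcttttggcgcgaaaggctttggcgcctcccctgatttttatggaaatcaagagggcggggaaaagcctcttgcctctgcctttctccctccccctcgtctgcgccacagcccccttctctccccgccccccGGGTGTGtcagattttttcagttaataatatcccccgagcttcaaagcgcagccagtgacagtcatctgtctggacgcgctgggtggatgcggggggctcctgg
Tdgf1: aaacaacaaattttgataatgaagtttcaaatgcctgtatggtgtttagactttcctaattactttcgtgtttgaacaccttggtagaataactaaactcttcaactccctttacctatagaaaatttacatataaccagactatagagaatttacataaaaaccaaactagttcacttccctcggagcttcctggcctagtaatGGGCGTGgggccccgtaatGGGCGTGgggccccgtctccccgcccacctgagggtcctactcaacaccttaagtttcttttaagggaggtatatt
Zfp42: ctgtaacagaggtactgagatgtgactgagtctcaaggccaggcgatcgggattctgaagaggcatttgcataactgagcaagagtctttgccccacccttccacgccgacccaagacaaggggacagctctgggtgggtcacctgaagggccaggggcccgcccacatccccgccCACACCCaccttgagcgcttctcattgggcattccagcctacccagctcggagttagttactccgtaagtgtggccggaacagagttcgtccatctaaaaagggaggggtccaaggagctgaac

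Nanog and Tdgf1 each hold 2 matches and the other promoters 1. A match on either strand stood in 38.6% of the promoters in bins with an ES-only contact (2219 of 5756), in 39.5% of those in bins with shared contacts alone, in 28.2% of those in bins with no ES KLF4 contact and in 31.7% of all 21263, all of them promoters of protein-coding genes. With noncoding genes included, 29.2% of all 32851 promoters held one. The GC content of these promoters followed the same order, at 61.1%, 61.8% and 53.7% for the first 3 groups, and its part in the shares was not tested. A match is a description of the letters, not a measured binding site.

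ES-only contacts lay at most genes of the pluripotency list and at few fibroblast genes. Of 26 pluripotency genes with an annotated bin 21 had at least 1 (80.8%), against 3 of 20 fibroblast genes (15%) and 5748 of 19575 protein-coding genes (29.4%). Shared contacts lay at 6, 3 and 3560 genes of these groups, so fibroblast genes had few ES KLF4 contacts of either kind. Counted gene by gene, ES-only contacts made up 82.5% of ES KLF4 contacts at pluripotency genes, 61.5% at fibroblast genes and 63.2% at all protein-coding genes. These lists were chosen with earlier results of the data known, so the counts describe and do not test. The 21 genes held 51 different ES-only contacts out of 62 ES KLF4 contacts at their bins. Their levels ran from 3.18 to 14.7 CPM (the count of a contact scaled to the total contacts of its chromosome), with a median of 5.91. All but 3 of the 51 joined bins less than 50 kb apart, and 27 joined neighbouring bins.

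**Figure D1:**
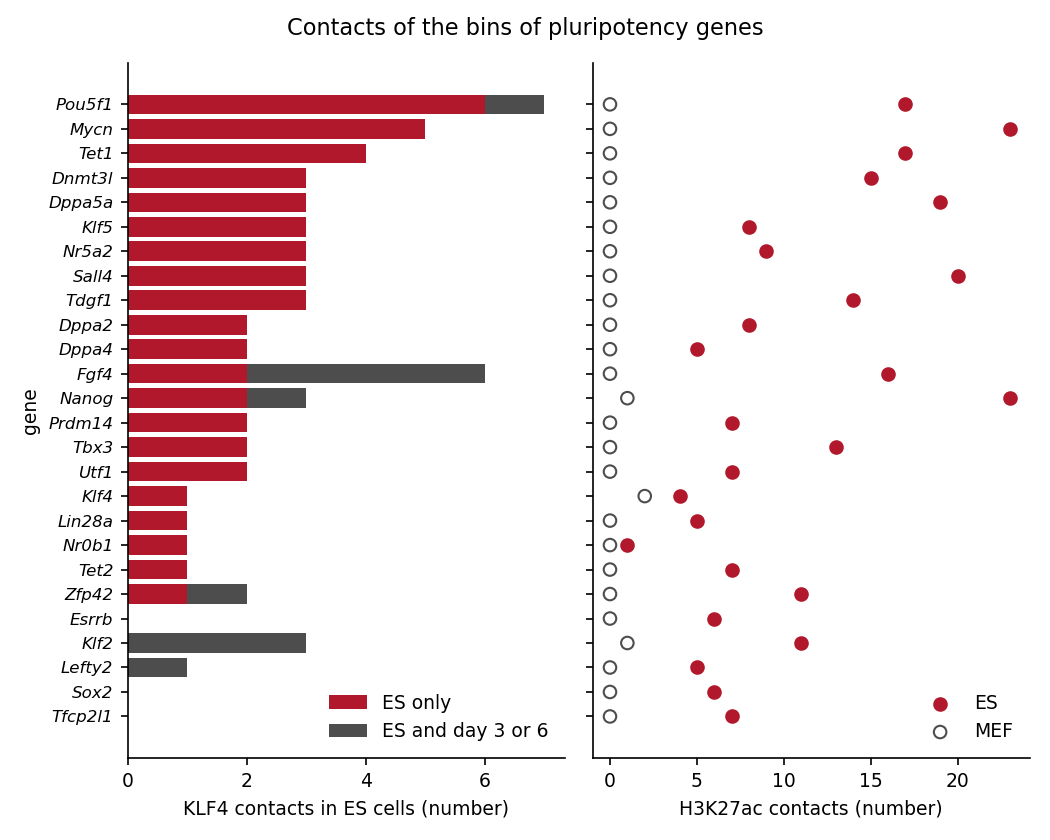
Left, the number of KLF4 contacts in ES cells at the bin of each pluripotency gene, split into ES-only contacts and those also listed at day 3 or 6. Right, the number of H3K27ac contacts of the same bin in ES cells (filled) and MEFs (open); Pou5f1 had 6 ES-only contacts, 17 H3K27ac contacts in ES cells and 0 in MEFs.

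Pou5f1, which encodes the core factor OCT4, had the most ES-only contacts of the list, 6 beside 1 shared contact. All 6 lay within 1 bin, at both anchors, of a contact listed at day 3 or day 6, as did 12 of the 51 of the whole list. The strongest joined the Pou5f1 bin to its neighbour, chr17:35490001-35510000, at 9.69, 10.3, 9.70 and 13.9 CPM in KLF4 libraries 1 to 4 (10.9 ± 1.27). The same contact stood at 46.0 and 50.3 CPM in ES H3K27ac and was not listed in MEFs. In TKO cells its H3K27ac level was 39.3, 41.7 and 40.1 CPM at 0 h and 34.1, 42.7 and 35.4 CPM at 24 h, overlapping ranges (log2 difference 0.02, edgeR adjusted p = 0.973). It was in the ES Hi-C list as well, and not in the MEF Hi-C list.

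Nanog, a homeodomain factor of the naive state, had 2 ES-only contacts and 1 shared contact. The stronger reached the bin after the gene, chr6:122700001-122720000, at 4.11, 6.25, 8.28 and 4.99 CPM (5.91 ± 1.03), with 26.6 and 24.5 CPM in ES H3K27ac. Its other ES-only contact, chr6:122690001-122710000, fell in TKO cells from 31.5, 38.0 and 36.4 CPM at 0 h to 20.2, 22.9 and 26.0 CPM at 24 h (log2 difference -0.49 ± 0.11 SE, edgeR adjusted p = 0.00157). All 24 h libraries lay below all 0 h libraries there, which adds no support, since the call came from these same libraries. The bin of Nanog had 23 H3K27ac contacts in ES cells and 1 in MEFs.

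Mycn, a MYC family gene active in ES cells, had 5 ES-only contacts and no shared one. The one that reached farthest joined Mycn to Platr19, a pluripotency-associated long noncoding transcript, 160 kb away (chr12:12780001-12790000 with chr12:12940001-12950000). It measured 4.41 and 5.25 CPM in KLF4 libraries 1 and 2 and 10.7 and 10.4 CPM in libraries 3 and 4 (7.69 ± 4.04), so the 2 pairs did not overlap. In H3K27ac it stood at 32.5 and 28.6 CPM in ES cells, 20, 21.7 and 16.9 CPM in TKO cells at 0 h and 16.9, 17.1 and 17.0 CPM at 24 h (log2 difference -0.10, edgeR adjusted p = 0.848), and it was absent from the MEF list and from both Hi-C lists. Of all ES-only contacts at least 100 kb long with a gene at both anchors it was the strongest by CPM. The Platr19 bin at one end had 11 ES-only contacts, with 33 H3K27ac contacts in ES cells and 0 in MEFs. At the other end the Mycn bin had 5, with 23 H3K27ac contacts in ES cells and 0 in MEFs. The bin beside Mycn, chr12:12930001-12940000, is not an anchor of this contact. It had 12 ES-only contacts, with 18 H3K27ac contacts in ES cells and 0 in MEFs.

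The strongest contacts of the list were at Tdgf1, Dppa5a and Tet1. Tdgf1, the Nodal co-receptor Cripto, was joined to Lrrc2 in the next bin (chr9:110940001-110960000) at 7.20, 9.20, 19.3 and 23.2 CPM (14.7 ± 9.22). Dppa5a, a developmental pluripotency gene with an RNA-binding domain, was joined to its neighbour Ooep (chr9:78360001-78380000) at 7.41, 11.8, 18.2 and 16.0 CPM (13.4 ± 5.34). Both were far lower in KLF4 libraries 1 and 2 than in libraries 3 and 4, and both were strong in ES H3K27ac, at 77.0 and 75.9 CPM for Tdgf1 and 83.0 and 80.1 CPM for Dppa5a. Tet1, an enzyme that oxidises 5-methylcytosine, had 4 ES-only contacts, the strongest at 10.9, 6.98, 14.4 and 14.9 CPM. Zfp42 (REX1), a marker of naive cells, stood at 10.1, 10.7, 10.6 and 8.98 CPM, and Dnmt3l, a cofactor of de novo DNA methylation, at 9.58, 10.3, 9.69 and 9.96 CPM. In these last 2 all 4 libraries lay close together.

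**Figure D2:**
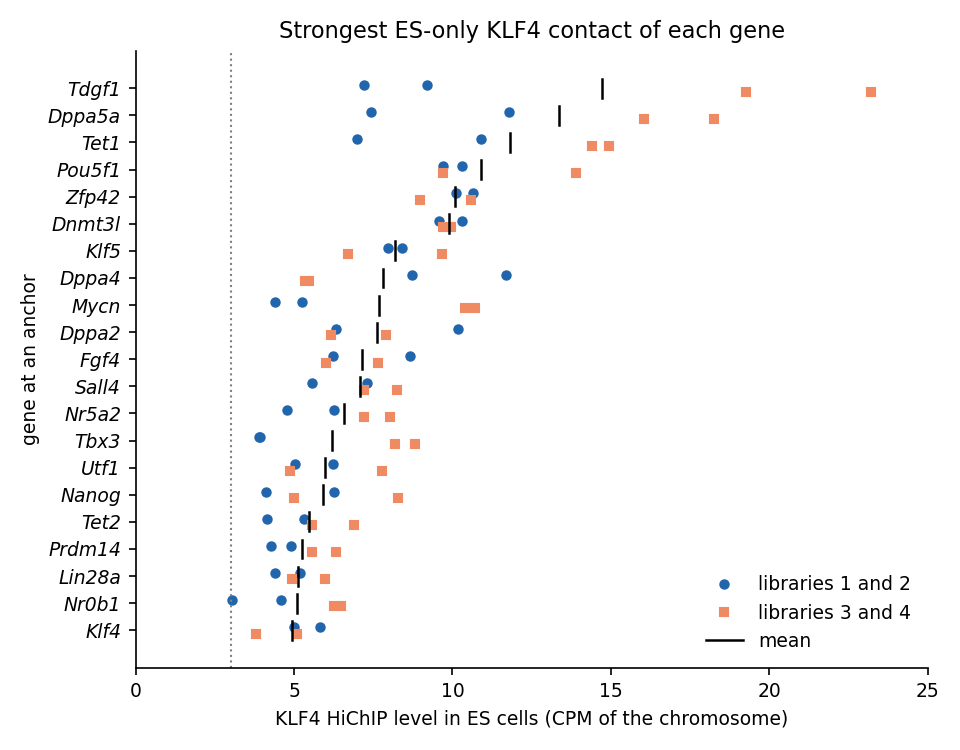
KLF4 level (CPM of the chromosome, x axis) of the strongest ES-only contact of each pluripotency gene in the 4 ES KLF4 libraries, with the mean as a line and the cutoff of 3 CPM dotted. Libraries 3 and 4 stand to the right of libraries 1 and 2 for Tdgf1, Dppa5a and Mycn, while the 4 libraries lie together for Dnmt3l and Zfp42.

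Klf5, Sall4 and Nr5a2 had 3 ES-only contacts each. Klf5, a KLF family member that shares targets with KLF4, stood at 8.41, 7.98, 9.66 and 6.71 CPM for its strongest. Prdm14, Tbx3, Utf1, Dppa2, Dppa4 and Fgf4 had 2 each, and Klf4, Lin28a, Nr0b1 and Tet2 had 1. Fgf4, a growth factor of the inner cell mass, differed in that 4 more of its ES contacts were shared. No ES-only contact reached the bins of Sox2, Esrrb, Tfcp2l1, Klf2 or Lefty2, although all of these had more H3K27ac contacts in ES cells than in MEFs. Klf2 and Lefty2 had only shared KLF4 contacts, while Sox2, Esrrb and Tfcp2l1 had none listed.

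The H3K27ac lists of pluripotent cells held nearly all of the 51 contacts. They counted 50 in ES cells, 49 in TKO cells at 0 h and 49 at 24 h, against 1 in MEFs, while ES Hi-C held 15 and MEF Hi-C 9. Where listed, the H3K27ac level in ES cells was 4.34 to 81.5 CPM with a median of 15.7. The exception was the single contact at Klf4 itself, chr4:55530001-55550000, at 4.99, 5.82, 5.10 and 3.79 CPM in the KLF4 libraries. It was listed in MEF H3K27ac at 4.58 and 6.85 CPM and not in ES H3K27ac. In TKO cells it stood at 7.42, 7.41 and 7.28 CPM at 0 h and 9.91, 8.61 and 9.35 CPM at 24 h, a difference that missed the threshold (log2 difference 0.40, edgeR adjusted p = 0.257).

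Fibroblast genes with an ES-only contact were few (3 of 20), and as few had a shared one (3). Fn1 (fibronectin) had 3, Col1a1 (the collagen gene at which the MEFs carry the cassette) had 3 and Snai1 had 2. The Fn1 contacts were all in ES H3K27ac and none in MEF H3K27ac. The strongest, chr1:71640001-71660000, measured 5.67, 4.51, 6.48 and 6.20 CPM in the KLF4 libraries and 22.1 and 21.9 CPM in ES H3K27ac. It fell in TKO cells from 27.8, 30.8 and 31.3 CPM at 0 h to 14.8, 17.3 and 17.6 CPM at 24 h, with no overlap (log2 difference -0.72, edgeR adjusted p = 9.93e-08). The lack of overlap adds no support, since the call came from these same libraries. Both Snai1 contacts and 1 of the 3 at Col1a1 were in the MEF list and not in the ES list.

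ES-only contacts as a whole were weaker than shared ones in the ES KLF4 libraries, which is a property of the measure that chose them and is given as a description. Their median level was 4.88 CPM (interquartile range 3.83 to 6.36), against 6.06 CPM (4.73 to 7.80) for shared contacts. Medians by library were 5.07, 5.31, 4.75 and 4.30 CPM, and the median counts were 22, 14, 18 and 22. Averaged over the pairs, the median was 5.21 CPM in libraries 1 and 2 and 4.52 CPM in libraries 3 and 4, and 74.3% of ES-only contacts were higher in the first pair (65.3% of shared ones). Libraries 1 and 2 exceeded 3 CPM at every listed contact, whereas libraries 3 and 4 reached down to 0. The list thus holds weak contacts only where the first pair passed 3 CPM, and the part of this selection in these shares was not tested. A total of 11657 ES-only contacts (70.1%) exceeded 3 CPM in all 4 libraries, as did 87.5% of shared ones, and of the 51 contacts at pluripotency genes 47 did.

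Near the threshold the choice turned on small values. The weakest ES-only contact by mean, 410 kb long and starting at Golga7b (chr19:42250001-42260000), had 3.16 and 3.05 CPM in libraries 1 and 2, then 0 and 1.16 CPM in libraries 3 and 4. Just outside stood a contact near the ubiquitin ligase gene Wwp2, chr8:107390001-107400000 with chr8:107430001-107440000, with 3.43, 3.66, 3.67 and 3.21 CPM in ES cells. It counted as shared because day 3 listed it at 3.01, 3.28 and 1.13 CPM. A contact in the bin of Setd5 and Gt(ROSA)26Sor, a locus often used for transgenes, was likewise listed at day 3 with 3.05, 3.29 and 2.01 CPM. Proximity to earlier contacts was common: 5009 ES-only contacts (30.1%) had both anchors within 1 bin of those of a day 3 or day 6 contact. Both anchors were already anchors of some KLF4 contact at day 3 or 6 in 3653 (22.0%), 1 anchor was in 5925 (35.6%), and neither was in 7044 (42.4%).

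The strongest ES-only contacts lay in 1 short stretch of chromosome 11. Between chr11:3130001 and chr11:3200000, near Sfi1, the top 5 reached 116, 103, 77.3, 61.7 and 32.4 CPM. The first (chr11:3140001-3160000) measured 117, 127, 112 and 109 CPM in the 4 libraries. In TKO cells its H3K27ac contact was listed at 24 h, with 141, 135 and 139 CPM, and not at 0 h. The bin chr11:3150001-3160000, with 5 ES-only contacts, also had 2 KLF4 contacts listed at day 3 and 2 at day 6. KLF4 contacts in this stretch were thus not confined to ES cells. That stretch was also far above the rest in Hi-C: the first contact had a mean signal of 989 in ES cells and 1360 in MEFs, against list medians of 29.3 and 30.3. Outside this stretch the strongest contact by CPM joined Tmem179b to Taf6l, a subunit of histone acetyltransferase complexes, at 26.6, 26.7, 15.5 and 18.9 CPM (chr19:8770001-8790000). Scaled to the whole library instead of the chromosome, the first contact outside the stretch was chr10:108280001-108300000, with a mean of 0.859 counts per M contacts of the library against 0.557 for Tmem179b with Taf6l.

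CPM was set per chromosome, which gives a contact on a short or poorly covered chromosome a higher value for the same count. Chromosome 19, the shortest autosome, held 1397 ES-only contacts, chromosome 17 held 1198, chromosome 1 held 562 and the X held 341. With 1 count cutoff for all chromosomes 5538 ES-only contacts remained, of which 192 were on chromosome 19, 412 on chromosome 1 and 2 on the X. The bins with the most ES-only contacts were on chromosome 19 too, with 18 at Snx15 (a sorting nexin), 16 at Gstp3 (a glutathione transferase) and 15 at Gm29595. Under the single cutoff the most in any bin was 7, at chr4:119000001-119010000. In all, ES-only contacts used 19987 bins, of which 12976 (64.9%) had 1 contact and 778 (3.89%) had 5 or more.

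Distances were short, with a median of 20 kb for ES-only and for shared contacts alike. Neighbouring bins made up 34.98% of ES-only and 41.4% of shared contacts. Long contacts took a larger share among ES-only ones: 3066 (18.4%) spanned at least 50 kb against 10.8%, and 1041 (6.26%) at least 100 kb against 3.18%. After Mycn with Platr19, the strongest long contacts by CPM with genes at both ends joined Macrod1 to Otub1 (7.501 CPM), Cdc42ep2 to Snx15 (6.403 CPM), Capn1 to Snx15 (6.35 CPM) and Rcor2 to AI846148 (6.26 CPM). All 4 are on chromosome 19, and scaled to the whole library they stood at 0.191, 0.163, 0.162 and 0.159 counts per M contacts, below the 0.335 of a contact of Gtf2ird2 with Gm46925 on chromosome 5 and the 0.340 of Mycn with Platr19. Rcor2, a partner of the demethylase LSD1, stood at 7.22, 6.10, 5.15 and 6.55 CPM. An ES topological domain boundary, as the authors annotated it, was crossed by 1.48% of ES-only contacts (240 of 16186) and a MEF boundary by 2.60% (412 of 15827), against 1.22% and 1.48% of shared contacts. Among contacts of at least 50 kb an ES boundary was crossed by 2.24% of ES-only and 2.06% of shared ones. A MEF boundary was crossed by 3.70% and 2.07% of these, with 17 shared contacts in either case. Genes were annotated at both anchors in 12.9% of ES-only contacts, at 1 anchor in 45.8% and at neither in 41.3%.

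Presence in the H3K27ac lists differed between ES cells and MEFs. The MEF libraries were also shallower and their list shorter (60870 contacts against 75466), and the part of depth in the shares was not tested. ES H3K27ac held 69.7% of ES-only KLF4 contacts (95% Wilson interval 69.0 to 70.4) and MEF H3K27ac 24.8% (24.1 to 25.5). For shared contacts these shares were 82.8% and 60.0%, so the gap between the kinds of contact was widest in MEF H3K27ac. TKO cells held 72.0% at 0 h and 68.2% at 24 h (shared 83.6% and 79.9%). Hi-C held 60.7% in ES cells and 45.3% in MEFs (shared 67.2% and 58.0%). Such intervals cover counting error over contacts only, the libraries hold PCR reads without molecular identifiers, and each list is 1 set per group, so no test over replicates was possible for a share.

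**Figure D3:**
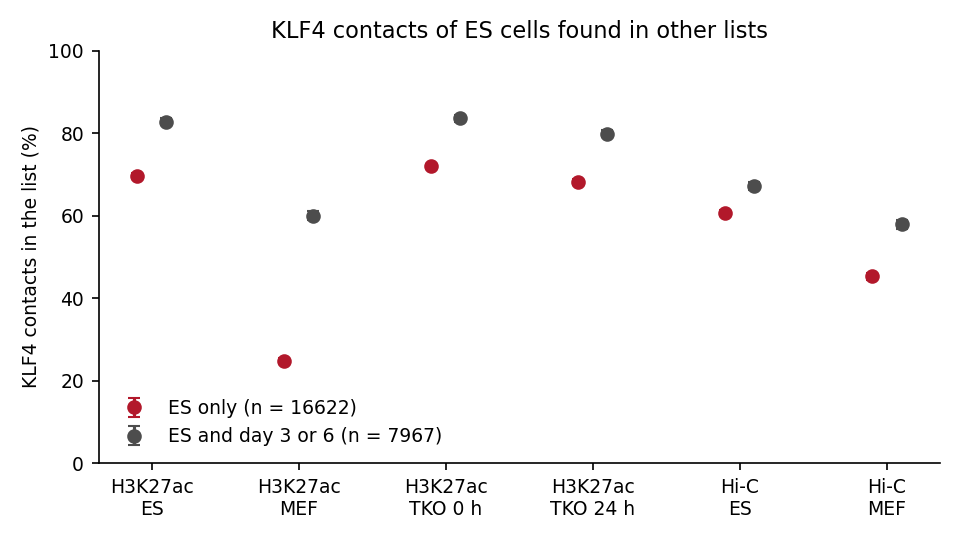
Share of KLF4 contacts of ES cells (y axis, percent, with 95% Wilson intervals that are mostly smaller than the points) found in each of the other 6 lists, for 16622 ES-only and 7967 shared contacts. The ES-only share is lowest in MEF H3K27ac, at 24.8%, against 60.0% of shared contacts.

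ES-only contacts were weaker, and contacts of either kind below 4 CPM were found less often in the H3K27ac lists than those at 8 CPM or more, so the H3K27ac shares were also compared at equal KLF4 level (a split added after the data had been seen). Below 4 CPM 15.2% of ES-only and 44.7% of shared contacts were in MEF H3K27ac, and at 8 CPM or more 35.3% and 70.2%. In ES H3K27ac the same ranges gave 54.1% and 64.7%, then 83.5% and 92.1%. ES Hi-C went the other way, with 61.3% and 69.5% below 4 CPM and 56.9% and 66.3% at 8 CPM or more. Distance left the order unchanged as well: for neighbouring bins MEF H3K27ac held 27.2% and 59.5%, and at 100 kb or more 15.5% and 57.3%.

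**Figure D4:**
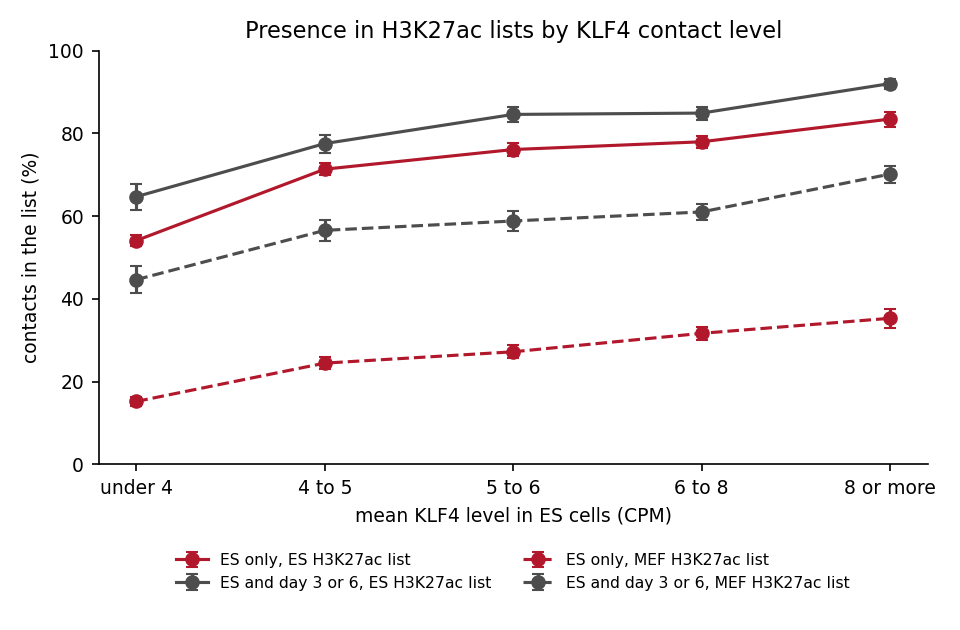
Share of contacts (percent, with 95% Wilson intervals) listed in ES H3K27ac (solid) and MEF H3K27ac (dashed) by mean KLF4 level in ES cells (CPM). In each of the 5 level ranges the ES-only share is below the shared one, from 15.2% against 44.7% to 35.3% against 70.2% in MEF H3K27ac.

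Sorted by both cell types, 8295 ES-only contacts (49.9%) were in ES and not in MEF H3K27ac, as were 30.1% of shared ones. Another 3294 (19.8%) were in both, 827 (4.98%) in MEFs alone and 4206 (25.3%) in neither, against 52.7%, 7.34% and 9.83% of shared contacts. Median KLF4 levels of the 4 classes were 5, 5.61, 4.74 and 4.13 CPM. Of the 8295 contacts in the ES and not the MEF H3K27ac list, 3400 (41.0%) were in the MEF Hi-C list and 4874 (58.8%) in the ES Hi-C list, close to the 45.3% and 60.7% of all ES-only contacts. For shared contacts of that class the shares were 51.9% and 61.7%. Only 888 ES-only contacts (5.34%) were in none of the 6 other lists, against 1.54% of shared ones, and 1287 (7.74%) were in all 6, against 24.7%.

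Where ES-only contacts were listed in both cell types, more of their H3K27ac levels were higher in ES cells than lower. Fitting all 17901 contacts of both lists, edgeR found 875 of 3294 ES-only contacts (26.6%) higher in ES cells than in MEFs and 300 (9.11%) lower, at an adjusted p under 0.05. Among all contacts tested 17.6% were higher and 14.4% lower, and among the shared ones 29.9% and 14.7%. The median log2 difference was 0.14 for ES-only contacts, likewise 0.14 for shared ones, and -0.04 for all. Without TMM scaling the counts were 1245 higher and 157 lower, which raised the higher share of the called ones from 74.5% to 88.8% and the median of all contacts from -0.04 to 0.21, while ES-only contacts stayed 0.18 above all contacts under both scalings. Leaving out MEF library 2 cut the lower ones to 148. Contacts in only 1 of the lists, among them all 51 at pluripotency genes, were not tested.

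Higher in ES cells by the largest amount was a contact without an annotated gene at chr10:108280001-108300000, with 85.8 and 84.8 CPM in ES cells and 7.21 and 5.12 CPM in MEFs (log2 difference 3.49 ± 0.15 SE, edgeR adjusted p = 3.48e-25). Its KLF4 level was 9.58, 9.55, 21.6 and 24.2 CPM, again higher in libraries 3 and 4. Senp3, a SUMO protease, shared a bin with Tnfsf13 and stood at 31.3 and 30.8 CPM against 3.97 and 5.39 CPM (log2 difference 2.65). A contact of Cd2bp2 with Mylpf differed by 2.58 on the log2 scale. In none of these did a MEF library reach an ES library, which describes contacts picked by the fit of the same libraries.

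Lower in ES cells by the largest amount was a contact of D930032P07Rik with a bin 50 kb away (chr19:28620001-28630000 with chr19:28670001-28680000), at 4.71 and 3.47 CPM in ES cells and 29.8 and 41.8 CPM in MEFs (log2 difference -3.31, edgeR adjusted p = 7.39e-17). The next was at Tgfbi, a matrix protein induced by TGF-beta, with 3.42 and 4.82 CPM against 14.1 and 16.4 CPM (log2 difference -2.24). Mrtfa, a coactivator of serum response factor, had one at 3.18 and 3.29 CPM against 8.59 and 10.4 CPM (log2 difference -1.83). These were contacts listed for KLF4 in ES cells whose H3K27ac contact was the stronger in fibroblasts.

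KLF4's own family was among the gene groups reached. Among KLF and SP family genes 13 of 25 with a bin had an ES-only contact (27 contacts), and of 8 tested for H3K27ac 5 were higher in ES cells and 0 lower. Beside these counts stand 29.4% of all protein-coding genes with an ES-only contact, and 26.6% of ES-only and 17.6% of all contacts tested that were higher. The bins of Klf9 and Sp1 carried 4 of the 5. Klf9, chr19:23140001-23150000 with chr19:23160001-23170000, measured 24.5 and 30.3 CPM in ES cells and 8.42 and 9.87 CPM in MEFs (log2 difference 1.41, edgeR adjusted p = 1.77e-06). Sp1, the founding GC-box factor, stood at 15.5 and 16.6 CPM against 3.82 and 7.22 CPM for its contact with the bin 20 kb before (log2 difference 1.2, edgeR adjusted p = 2.83e-05).

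Genes of chromatin regulators had ES-only contacts in 14 of 26 cases (41 contacts), against 29.4% of all protein-coding genes. Of 12 contacts tested 6 were higher in ES cells and 0 lower, read against the same 26.6% and 17.6%. The unrelated list of ribosomal protein genes gave a like share, 10 of 19 higher and 0 lower, and 26 of its 61 genes had an ES-only contact. Dnmt3a, a de novo DNA methyltransferase, had 7. A contact at Rad21, a cohesin subunit, fell in TKO cells from 30.7, 35.8 and 36.0 CPM to 15.9, 21.1 and 20.2 CPM (log2 difference -0.69, edgeR adjusted p = 3.64e-05). Every 24 h library lay below every 0 h library there, which adds no support, since the call came from these same libraries. Of the 31 contacts of this list tested in TKO cells 2 were lower and 0 higher. Among all ES-only contacts tested 4.65% were lower, and among all contacts tested 2.2%. At Dnmt3a all 7 contacts were in ES Hi-C and ES H3K27ac, 6 were in MEF Hi-C, 2 in MEF H3K27ac and 1 in the TKO 0 h list.

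Signalling genes of the LIF, BMP, WNT and FGF pathways had ES-only contacts in 17 of 26 cases (30 contacts), against 29.4% of all protein-coding genes. Shared contacts lay at 15 of the 26, and 50% of their ES KLF4 contacts were ES-only, against 63.2% at all protein-coding genes. Of 11 tested 3 were higher in ES cells and 0 lower, at Fgfr1, Pim1 and Socs3, a share near the 26.6% of all ES-only contacts tested. Lifr, the LIF receptor subunit, had the most with 5, the strongest at 10.8, 13.1, 8.88 and 8.98 CPM. Its H3K27ac levels were 11.1 and 9.72 CPM in ES cells and 8.91 and 5.19 CPM in MEFs, a difference that missed the threshold (log2 difference 0.36, edgeR adjusted p = 0.263). Socs3, the feedback inhibitor of LIF signalling, stood at 8.55 and 10.3 CPM against 4.77 and 4.83 CPM (log2 difference 0.93, edgeR adjusted p = 0.00101). Of the lineage and primed-state genes 5 of 14 had one (35.7%, near the 29.4% of all protein-coding genes), at Dnmt3b, Gsc, Nes, Otx2 and Pax6. In MEF H3K27ac 0 of their 14 contacts were listed, against 24.8% of all ES-only contacts.

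Dox treatment of TKO cells for 24 h moved the H3K27ac level of few ES-only contacts, and mostly down. Of 10642 in both TKO lists edgeR called 495 lower at 24 h (4.65%) and 57 higher (0.536%) at an adjusted p under 0.05, where all 67723 contacts tested gave 2.2% lower and 0.601% higher. Shared KLF4 contacts gave 4.87% lower and 0.585% higher, so the share that fell was close in ES-only and shared contacts. The median log2 difference was -0.04 for ES-only contacts and 0.01 for all, and without TMM scaling these medians were -0.15 and -0.10, with 911 lower and 17 higher. The lower count was 311 to 327 without TKO 0 h library 2 or 3 or TKO 24 h library 1 or 3. The higher count was 23 to 37 without any TKO 0 h library or TKO 24 h library 2 or 3. In terms of listing, 10642 ES-only contacts (64.0%) were in both TKO lists, 1320 (7.94%) at 0 h alone, 689 (4.15%) at 24 h alone and 3971 (23.9%) in neither.

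Foxd3, a forkhead factor needed for pluripotent cells of the embryo, held the contact that fell most (chr4:99630001-99640000 with chr4:99650001-99660000). Its H3K27ac level went from 15.6, 19.4 and 18.6 CPM at 0 h to 5.80, 6.33 and 5.89 CPM at 24 h (log2 difference -1.46 ± 0.16 SE, edgeR adjusted p = 4.37e-15), and its KLF4 level in ES cells was 5.56, 5.50, 6.20 and 9.06 CPM. A contact at A230028O05Rik went from 34.2, 30.8 and 40.1 CPM to 11.8, 15.1 and 13.2 CPM (log2 difference -1.26). Contacts without an annotated gene at chr6:122890001-122900000, chr17:37990001-38000000 and chr14:91460001-91480000 fell by 1.30, 1.27 and 1.203 on the log2 scale. The contact at chr10:108280001-108300000, which led the ES to MEF comparison, fell from 114, 121 and 136 CPM to 70.1, 76.9 and 72.3 CPM (log2 difference -0.65, edgeR adjusted p = 5.23e-11). In all of these the 2 groups of libraries did not overlap, which describes contacts picked by the fit of the same libraries.

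Of the 48 tested contacts at pluripotency genes 5 fell and 0 rose, with a median log2 difference of -0.10, where 4.65% of all ES-only and 2.2% of all contacts tested were lower. Besides Nanog, these were at Dppa5a, Nr5a2, Tbx3 and Tet2. Dppa5a with Ooep went from 78.4, 90.8 and 89.0 CPM to 54.7, 66.5 and 59.2 CPM (log2 difference -0.37 ± 0.09 SE, edgeR adjusted p = 0.00368), which missed the threshold without TKO 0 h library 2 or 3 (adjusted p = 0.0692 and 0.0596). Tet2, a second 5-methylcytosine oxidase, went from 20, 22.8 and 22.3 CPM to 14.3, 14.9 and 13.1 CPM (log2 difference -0.51, edgeR adjusted p = 0.00738), which missed it without TKO 24 h library 3 (adjusted p = 0.0736). Tbx3, a T-box factor of the naive state, went from 17.3, 16.1 and 15.3 CPM to 7.42, 11.8 and 12.1 CPM (log2 difference -0.49, edgeR adjusted p = 0.0345). The liver receptor homologue gene Nr5a2 gave 19.3, 23.2 and 19.9 CPM, then 13.9, 14.7 and 14.9 CPM (log2 difference -0.40, edgeR adjusted p = 0.0373). None of the 5 overlapped between 0 h and 24 h, which adds no support, since the fit of these same libraries picked them.

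Contacts that rose were fewer. Igdcc4, a cell-surface immunoglobulin family gene, went from 8.33, 10.5 and 7.94 CPM to 11.7, 14.8 and 19.5 CPM without overlap (log2 difference 0.91, edgeR adjusted p = 9.69e-06). That lack of overlap adds no support, since the fit of these same libraries picked the contact. Lamp2, a lysosomal membrane protein gene, went from 6.17, 7.80 and 3.90 CPM to 12.9, 10.3 and 10.9 CPM (log2 difference 0.97, edgeR adjusted p = 0.0210), and 4 of its 6 fits without 1 library missed the threshold, with adjusted p up to 0.171 (without TKO 0 h library 3). A contact 100 kb from Mycn, chr12:12800001-12810000 with chr12:12840001-12850000, rose by 0.92 on the log2 scale and missed the threshold without TKO 0 h library 1 (adjusted p = 0.133).

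**Figure D5:**
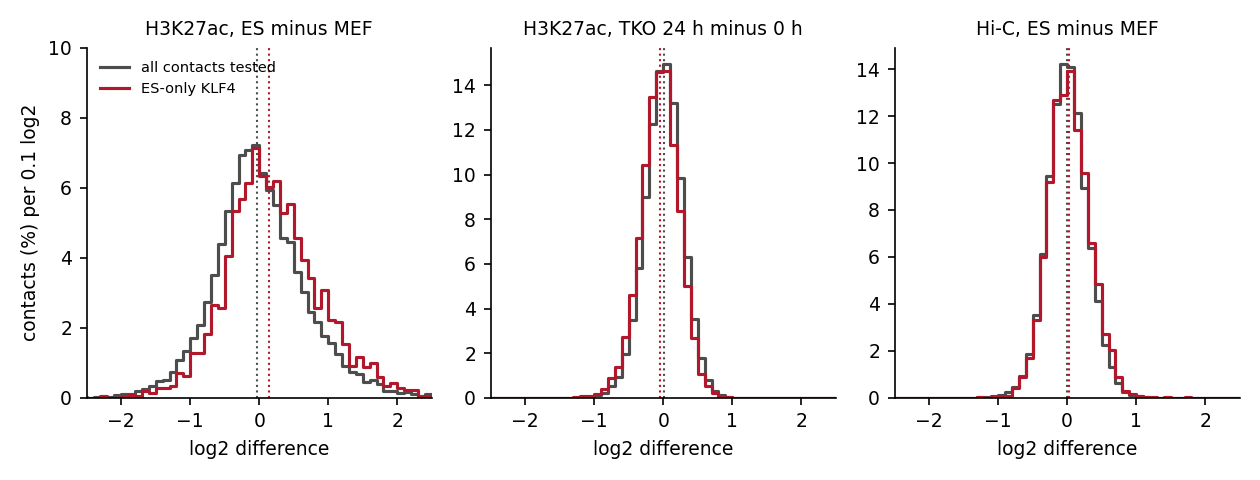
Distribution of fitted log2 differences (x axis; y axis, percent of contacts per 0.1 log2) for all contacts tested and for ES-only KLF4 contacts, with medians dotted, in H3K27ac of ES cells against MEFs, H3K27ac of TKO cells at 24 h against 0 h, and Hi-C of ES cells against MEFs. The ES-only median is above that of all contacts in the first panel (0.14 against -0.04, with shared contacts, not drawn, also at 0.14), below it in the second (-0.04 against 0.01) and near it in the third (0.02 against 0.00).

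Proximity itself, as Hi-C measured it, was called different in few of the ES-only contacts that both cell types listed. Of 6153 tested 2 were higher in ES cells (0.0325%) and 0 lower by edgeR at an adjusted p under 0.05, against 0.0209% and 0.0113% of all 124204 contacts. With 2-fold differences put into simulated counts of contacts drawn from all those in both lists, the Hi-C fit recovered 38% of the differences. The rate for ES-only contacts alone was not simulated. Their median Hi-C signal was above that of the whole list, at 45.4 against 29.3 in ES cells and 44.7 against 30.3 in MEFs. The fits of H3K27ac recovered 66.5% in ES against MEF and 73% in TKO cells. Few calls therefore do not show that proximity was equal. At an unadjusted p under 0.05 there were 532 of the 6153, against 7544 of all 124204, and DESeq2 called 0 higher and 0 lower. The first, chr16:35480001-35490000 with chr16:35550001-35560000, had a Hi-C signal of 86.8 and 71.7 in ES cells and 16.2 and 24.9 in MEFs (log2 difference 1.78, edgeR adjusted p = 0.000103), while its H3K27ac level was lower in ES cells (5.97 and 5.78 CPM against 7.94 and 8.77 CPM, log2 difference -0.88, adjusted p = 0.00297). The other reached from Tmem267 over 130 kb, with 146 and 110 in ES cells against 39.5 and 43.9 in MEFs (log2 difference 1.48, edgeR adjusted p = 0.000162). Both calls were lost without MEF Hi-C library 1 (adjusted p = 0.188 and 0.260). By listing, 37.1% of ES-only contacts were in both Hi-C lists, 23.6% in ES cells alone, 8.14% in MEFs alone and 31.1% in neither, against 48.2%, 19.0%, 9.79% and 23.0% of shared contacts.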

How the data were processed

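Per the labels' protocols, HiChIP and Arima Hi-C libraries were made from ES cells, MEFs and TKO cells. Per the submitters' processing notes, Bowtie2 2.2.3 and mm10 were used; the caller of contacts is not given in the sources used here. The deposited lists give each contact's count, a CPM per library and a p-value, at most 0.0997 in HiChIP and 0.00998 in Hi-C. As the authors deposited it, HiChIP CPM takes the contacts of the same chromosome as the total. For Hi-C the authors deposited a signal that they had scaled per chromosome by constants of unstated origin, so its depth is unknown. The authors' domain files carry a score per domain, deposited with no statement of how it was made, of which only the domain positions were used. Their TKO lists annotate genes and peaks per bin. A bin carried a gene if they named it there or a RefSeq start lay in it.

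Members are bin pairs of the ES KLF4 list absent from both reprogramming lists. Members, gene lists and tests were chosen with earlier results of these data known. Contacts in both lists of a comparison were tested on counts with edgeR 4.0.16 (quasi-likelihood, filterByExpr, TMM on contact totals, Benjamini-Hochberg adjustment over all of them, tested on simulated data), with DESeq2 1.42.0 as an alternative. For Hi-C, count sums over the contacts in both lists stood in for contact totals. SE is the standard error of the fitted log2 difference. Named contacts were the strongest, the strongest at 100 kb or more with genes at both anchors, the bins with most members, the largest calls each way, those beside the threshold, and those at genes of the lists. Every column of per-sample values was used or mapped, and R 4.3.3 and Python 3.11.15 ran the analysis. Some items are not reported here.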

Additional observations from a re-analysis of the deposited data

How the results depend on the processing

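The number of ES-only contacts, 16622, moved to 5538 with 1 count cutoff for all chromosomes and to 3066 at 50 kb or more. Requiring absence also within 1 bin, absence at day 3 alone or 3 CPM in every library left it within 1.5 times. The share found in each list moved with every choice, given here in the order ES, MEF, TKO 0 h and TKO 24 h H3K27ac, then ES and MEF Hi-C. Matching within 1 bin gave 82.3%, 47.8%, 84.1%, 81.5%, 88.8% and 77.5%. Members absent also within 1 bin gave 65.8%, 20.9%, 68.7%, 64.7%, 59.2% and 43.5%. Those above 3 CPM in every library gave 77.0%, 28.3%, 79.5%, 76.0%, 59.9% and 46.6%. A single count cutoff gave 79.6%, 29.2%, 82.9%, 79.7%, 58.9% and 49.5%. Anchors at least 50 kb apart gave 57.8%, 17.4%, 57.7%, 51.9%, 62.4% and 38.7%. The MEF H3K27ac share stayed the lowest under each. The median KLF4 level ran from 4.73 to 5.07 CPM without 1 library.

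In ES against MEF H3K27ac, 875 higher and 300 lower became 452 and 86 with DESeq2, 84 and 33 in a fit at 50 kb or more, and 459 and 163 among members absent also within 1 bin. The lower count was 157 without TMM and 152 with chromosome offsets. Leaving out 1 library gave 612 to 767 higher and 148 to 260 lower. In TKO cells 57 higher and 495 lower became 17 and 911 without TMM, 1 and 129 with DESeq2 and 2 and 29 at 50 kb or more, and 35 were higher among members absent also within 1 bin. Leaving out 1 library gave 23 to 45 higher and 311 to 393 lower. In Hi-C 2 higher became 0 with DESeq2, 5 with chromosome offsets and 1 among members absent also within 1 bin. Leaving out 1 library gave 0 to 8 higher and 0 to 2 lower, with the lone library of an arm assumed to vary like the others. Fits at 50 kb or more and subsets of members hold fewer contacts; the cause of the other shifts was not tested. No call changed direction. Of the named contacts, 8 calls of 166 alternatives were lost in ES against MEF, 25 of 184 in TKO cells and 5 of 20 in Hi-C.

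Same-numbered libraries showed no sign of deviating together (correlations of 0.0306 in ES and MEF H3K27ac, -0.00684 to 0.00495 in TKO cells and -0.000689 in Hi-C). Pairing is not excluded by this. Counts of H3K27ac libraries within a group differed little beyond sampling noise (chi-square 1.008 to 1.115 per degree of freedom), which leaves little deviation to correlate. With the replicate number as a block the counts were 897 higher and 311 lower in ES against MEF, 64 and 530 in TKO cells, and 4 and 2 in Hi-C.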
